A study of Eragrostis tef with 16 samples.

Results

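The genes described are 150 of the 68255 genes of tef (Eragrostis tef, a small-grained cereal) whose transcripts were scarce in roots and abundant in shoots grown at low Ca. They were chosen by their measured values. A gene qualified when its mean was below 1 CPM (the reads of a gene per 1000000 reads counted in the library) in both root groups, its mean was at least 5 CPM in low Ca shoots, and its lowest low Ca shoot library was above its highest control shoot library. The levels alone were met by 1388 genes and the last condition as well by 434, of which the 150 with the highest ratio of the low Ca to the control shoot mean, with 0.5 CPM added to both, were taken. No gene was dropped for being among the 109 that the study lists in its heatmap legends, since 0 of the 150 are among them. The levels in shoots and the differences between the shoot groups are therefore a description and carry no test.

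The plants came from a single tef accession that the study picked for its high seed Ca, and were raised as seedlings and then kept for about a month in a modified Hoagland hydroponic solution in which NH4NO3 took the place of Ca(NO3)2, so that control plants also lacked that nitrate salt. Ca was supplied at 1 mM (control) or 0.01 mM (low). RNA of root and shoot samples was sequenced in 16 libraries, with 4 independent replicates per group. The study does not say whether whole organs were used. Low Ca plants gave roots (LCR, S1 to S4) and shoots (LCS, S5 to S8). Control plants gave roots (ConR, S9 to S12) and shoots (ConS, S13 to S16). Root libraries held 6276818 to 10166944 counts (LCR) or 11587068 to 17659238 (ConR), and shoot libraries 9959542 to 11720368 (LCS) or 14640539 to 15590039 (ConS), so 1 CPM stands for 6.28 to 17.7 reads, and low values rest on few reads.

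Ca cross-links pectin in the plant cell wall, stabilises membranes and acts as a second messenger in responses to stress and to pathogens. It moves with the water stream in the xylem and is hardly remobilised through the phloem, so that young and enclosed leaves of a shoot tend to run short first. Tef is an allotetraploid with an A and a B subgenome, and the letter after the chromosome number in a gene identifier names the subgenome. No gene names, functions, positions or sequences were used here, so the genes go by their identifiers, and the tissue labels could not be checked against marker genes.

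In LCS the 150 genes together made up a small but clear part of all counts, and in the other groups nearly nothing. Their summed level was 3643 CPM in LCS S5, 4588 CPM in S6, 1896 CPM in S7 and 7186 CPM in S8. In ConS it was 52.01 CPM in S13, 87.9 CPM in S14, 51.2 CPM in S15 and 80.6 CPM in S16. The shoot groups were far apart, S7 being 21.6 times the highest ConS library, but LCS S8 was also 3.79 times LCS S7. The means were 4328 ± 2208 CPM for LCS against 67.9 ± 19.1 CPM for ConS (SD, n = 4 each), a ratio of 63.7, and 49.7 without LCS S8. The mean sums of the roots were lower, at 46.7 ± 8.38 CPM in LCR and 35.2 ± 4.00 CPM in ConR (SD, n = 4 each). LCR S1 (57.8 CPM) was above ConS S13 and S15, however, so LCR and ConS overlapped. The median gene was not higher in ConS, with a mean of 0.141 CPM there, 0.206 CPM in LCR and 0.160 CPM in ConR. In RNA of shoot samples, more cells of a type and more RNA per cell cannot be told apart.

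**Figure D1:**
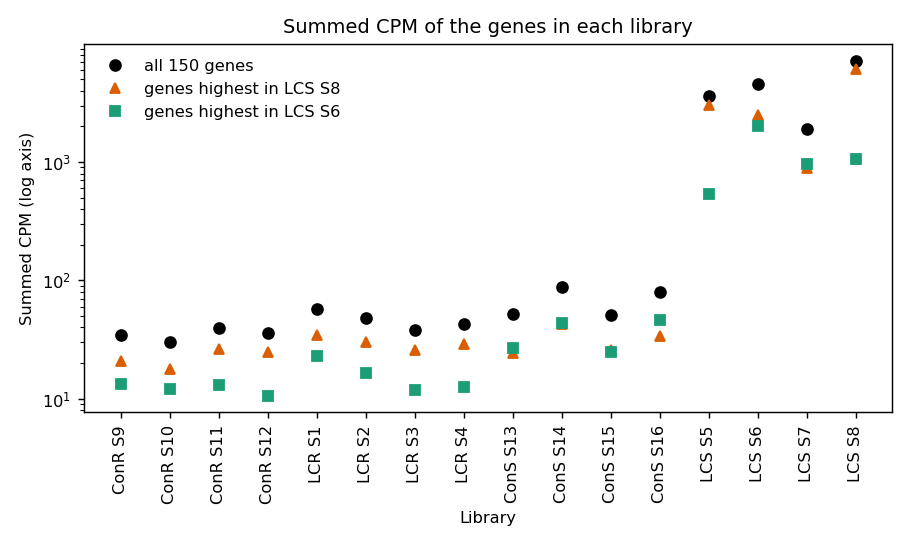
Summed CPM (log axis) of the 150 genes in each of the 16 libraries, with the sums of the 106 genes highest in LCS S8 and of the 38 genes highest in LCS S6 shown apart. The 12 root and control shoot libraries lie between 30.1 and 87.9 CPM for all 150 genes, and the 4 LCS libraries between 1896 and 7186 CPM.

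Most of these genes were of modest abundance in LCS. The mean level per gene ranged from 5.05 to 258 CPM with a median of 14.1 CPM. It was below 10 CPM in 41 genes, 10 to 20 CPM in 58, 20 to 50 CPM in 28, 50 to 100 CPM in 14 and above that in 9. The 10 most abundant genes held 32.2% of the summed LCS level. In ConS the mean per gene had a median of 0.141 CPM, and it was below 0.5 CPM in 114 genes and below 1 CPM in 131.

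Counts behind the low values were small. The median gene had 594 reads over the 4 LCS libraries (210 to 10890), against 8.5 reads in ConS, 9 in ConR and 7 in LCR. Reads were present in every LCS library for all 150 genes, in every ConS library for 84, in every ConR library for 76 and in every LCR library for 69. No read was found in ConS for 2 genes. Taking 3 reads over the 4 ConS libraries (0.0499 CPM) as the limit that a count of 0 allows, Et_1B_014419 was at least 173-fold higher and Et_7A_052926 at least 157-fold higher in LCS than in ConS. Another 32 genes had 1 to 3 reads over the ConS libraries, so the denominators of their ratios are poorly known. These limits cover counting error only.

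The ratio used for the choice ran from 10.1 to 211 with a median of 18.8, and it was at least 20 in 69 genes, at least 50 in 28 and at least 100 in 10. The choice had no natural break at its end. Et_3A_025863 (ratio 10.13) and Et_3A_025246 (10.06) were the last genes taken, and Et_1A_004612 (9.98) and Et_1B_010869 (9.94) the first left out. Et_3A_025863 had a mean of 21.5 ± 15.5 CPM in LCS against 1.67 ± 1.52 CPM in ConS. For Et_1A_004612 the means were 8.93 ± 5.12 CPM and 0.445 ± 0.484 CPM (SD, n = 4 each). In the edgeR fit, 150 of the 150 genes were called higher in LCS than in ConS, against 16.7% of the 56746 genes tested. The choice fixed this count, and nothing is read from it. Their median fitted log2 fold change was 6.40, and the median over all genes tested was 0.11.

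**Figure D2:**
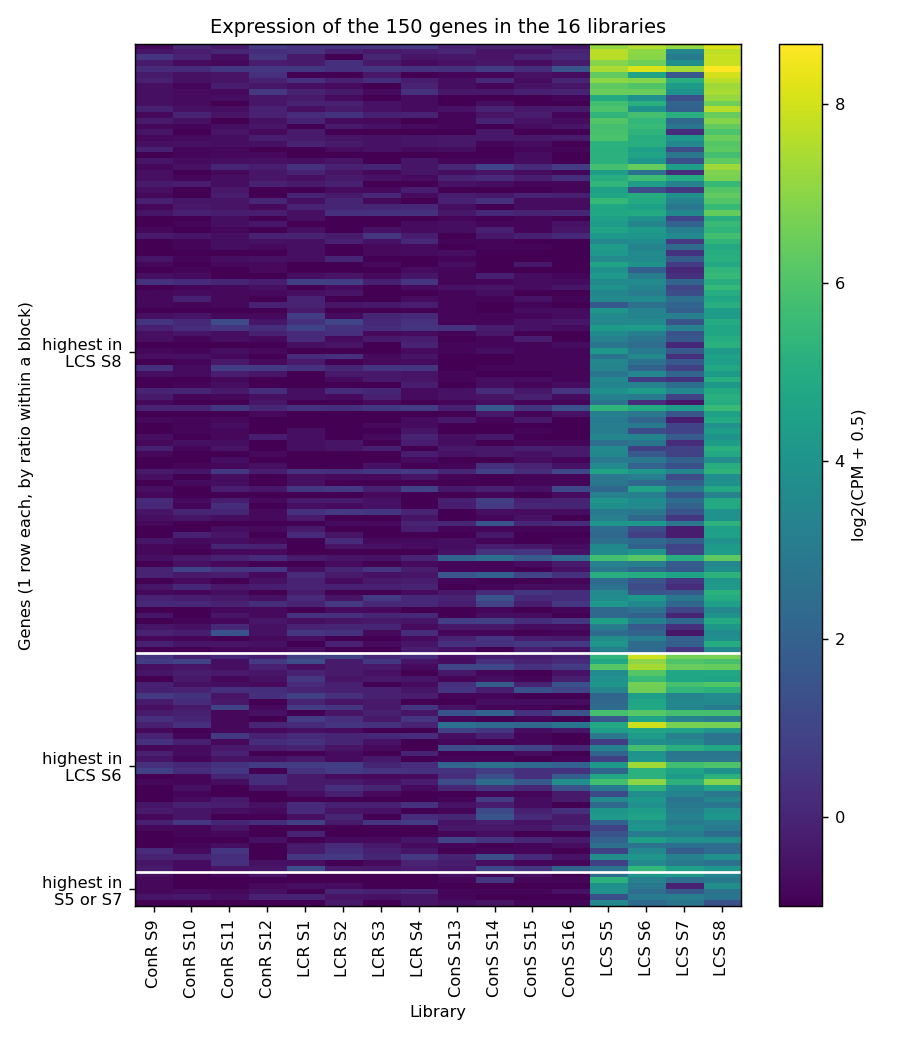
Level of the 150 genes (rows, ordered by the ratio within each block) in the 16 libraries (columns), as log2(CPM + 0.5), with white lines between genes highest in LCS S8, in LCS S6, and in LCS S5 or S7. The 4 LCS columns stand out from the other 12, and within them S7 is the darkest for most genes of the first block and S5 for most genes of the second.

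The gene with the highest ratio was Et_2B_021328, with 136 CPM in LCS S5, 191 CPM in S6, 139 CPM in S7 and 278 CPM in S8, and 0.257 to 0.472 CPM in ConS. Its LCS libraries lay within a narrow range for these genes, and its root libraries were between 0.0801 and 1.04 CPM. Et_2A_017335 was the most abundant gene, with 175, 282, 167 and 409 CPM in LCS S5, S6, S7 and S8, and 0.741, 1.09, 0.664 and 2.37 CPM in ConS S13 to S16. Its root libraries were at 0.623 to 0.984 CPM, and both its highest LCS and its highest ConS value stood well above the next. Et_9A_062466 had 40.8, 244, 100 and 103 CPM in the same order in LCS, and 0.202 to 0.513 CPM in ConS. It was the only 1 of the 10 genes with the highest ratio that was highest in S6, and its LCR libraries S1 and S2 were at 1.27 and 1.34 CPM.

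The other 7 of the first 10 genes dropped steeply in LCS S7. Et_1A_008983 had 202 CPM in LCS S5, 129 CPM in S6, 10.5 CPM in S7 and 218 CPM in S8. Et_1B_013863 had 198, 124, 7.51 and 228 CPM in the same libraries. These genes, from chromosomes 1A and 1B, had values close to each other in LCS S5, S6 and S8 and differed more in S7, and both were below 0.6 CPM in all ConS libraries. Et_7A_052927 had 121, 93.6, 13.6 and 234 CPM, Et_1A_006502 132, 116, 34.2 and 203 CPM, and Et_7B_054576 88.5, 87.8, 15.4 and 169 CPM. Et_3A_024893 had 77.5, 66.6, 19.1 and 158 CPM. Et_3B_031518 was the most uneven of them, with 80.8, 24.7, 2.56 and 257 CPM. For each of the 7, S8 was the highest and S7 the lowest LCS library, and the lowest was still above every ConS library.

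**Figure D3:**
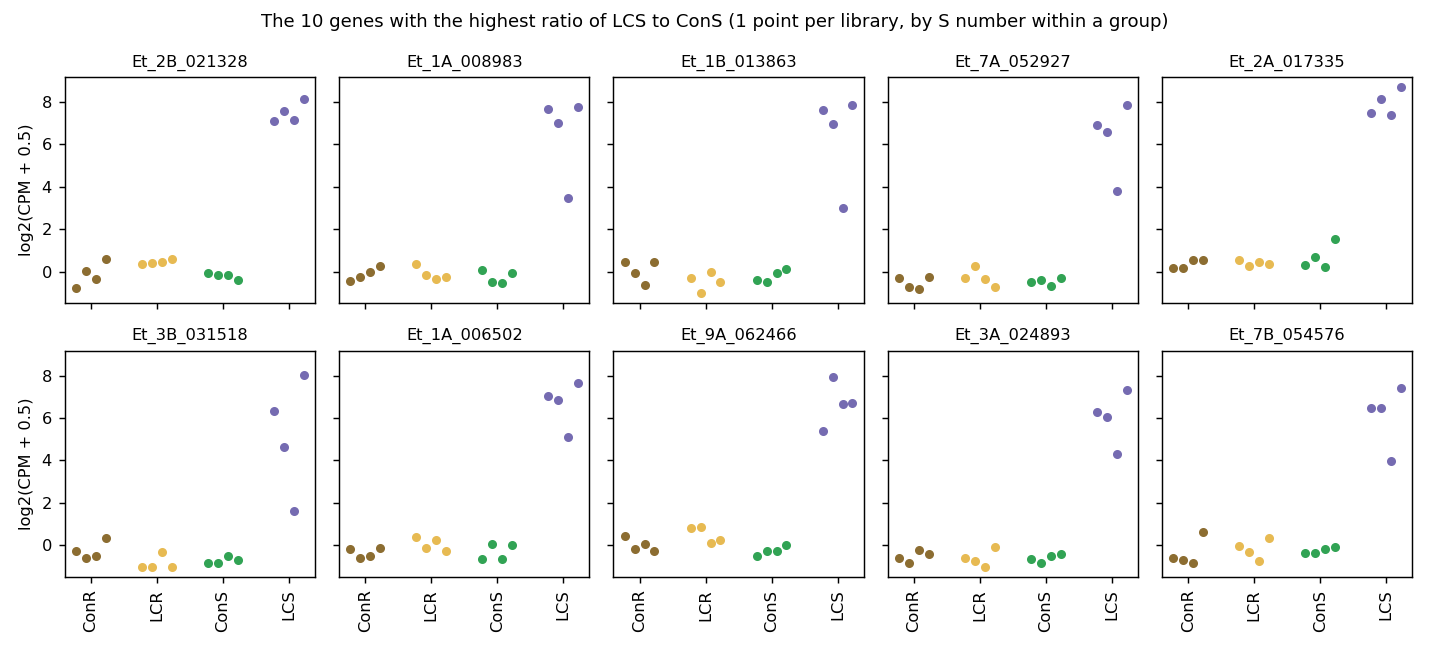
log2(CPM + 0.5) of the 10 genes with the highest ratio, with 1 point for each library in ConR, LCR, ConS and LCS, in the order of the S numbers within a group. The LCS points lie above all others in every panel, the third LCS point (S7) is the lowest in 8 panels, and root and ConS points overlap.

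The spread among the 4 LCS libraries was large and took a regular form. The highest LCS library was 1.19 to 163 times the lowest, with a median of 7.42, and it was at least 5 times the lowest in 106 genes and below 2 times in 6. The SD divided by the mean had a median of 0.701 and was above 1 in 31 genes. LCS S8 was the highest library for 106 genes (70.7%), S6 for 38 (25.3%) and S5 or S7 for 6. LCS S7 was the lowest for 110 (73.3%) and S5 for 33 (22.0%). At least 5 CPM was reached by 147 genes in S8, by 124 in S5, by 124 in S6 and by 76 in S7, and 22 genes were below 1 CPM in S7. The total counts ran in the reverse of the order of the summed levels, with 9959542 in S8, 10065478 in S6, 11498765 in S5 and 11720368 in S7, and the part of depth in these levels was not tested.

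The same libraries were high and low for other genes that rose in LCS, but the order was not shared in full. Of the 4205 other genes called higher in LCS with at least 5 CPM there, S8 was the highest library for 67.2% and S7 the lowest for 72.2%, and over all 24383 genes at that level the shares were 39.1% and 35.7%. The 284 genes that met the criteria but ranked too low had S8 highest in 36.3% and S7 lowest in 64.8%. For 4206 genes called lower in LCS at that level, S7 was the highest library for 52.8%, and S6 or S8 the lowest for 47.0% and 40.4%. The libraries of LCS therefore lay at different distances from ConS for genes of both directions, and the part of this in the levels given here was not tested. The median SD over mean was 0.393 in the 4205 genes, 0.311 in the 284 and 0.216 over all. A high value in 1 library raises the mean that the choice used, so these shares are a description.

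The order S8, S5, S6, S7 from high to low was found in 80 of the 150 genes (53.3%), in 28.7% of the 4205 genes and in 12.7% of all genes at that level. The order S8, S6, S5, S7 was found in 14% of the 150 and in 27.4% of the 4205. The order S6, S7, S8, S5 was found in 12.7% of the 150 and in 2.59% of the 4205, and the order S6, S8, S7, S5 in 6% and 11.3%. In the 284 genes that ranked too low, the first of these orders was found in 16.2% and the order S6, S7, S8, S5 in 4.93%. The 150 genes thus fell mainly into a larger set that was highest in S8 and lowest in S7, and a smaller set that was highest in S6 and lowest in S5. A peak in S6 was not particular to the 150 (25.3%), since S6 was highest for 23.6% of the 4205 genes and 37.3% of the 284.

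For the 106 genes highest in S8, the summed level was 3025 CPM in LCS S5, 2503 CPM in S6, 895.5 CPM in S7 and 6086 CPM in S8. S8 alone held as much of a typical gene's LCS level as the other 3 libraries, with median shares of 50% in S8, 23.9% in S5, 18.9% in S6 and 5.30% in S7. S7 was the lowest library for 101 of them, and the median of S8 over S7 was 9.70. They were 43 of the first 50 genes by ratio, and their median ratio was 20.5. In ConS their mean level had a median of 0.116 CPM.

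For the 38 genes highest in S6, the summed level was 534.4 CPM in LCS S5, 2035 CPM in S6, 960.3 CPM in S7 and 1056 CPM in S8. S7 was not low for this set, being close to S8 (median of S8 over S7 0.974), and S5 was the lowest library for 28 of the genes. The median shares were 44.0% in S6, 21.6% in S7, 21.6% in S8 and 9.18% in S5. The median ratio was 15.1, and 7 of them were among the first 50. In ConS their mean level had a median of 0.384 CPM, above that of the other set. Their summed ConS level was 27.1 CPM in S13, 43.9 CPM in S14, 24.8 CPM in S15 and 46.4 CPM in S16.

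**Figure D4:**
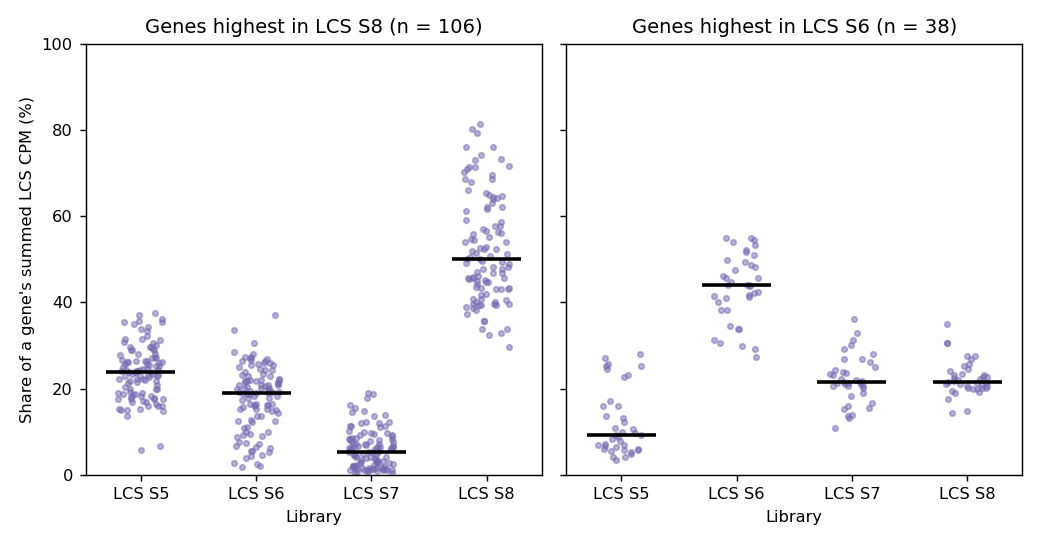
Share (%) of a gene's summed LCS CPM that lies in each LCS library, with 1 point per gene and a bar at the median, for the 106 genes highest in S8 and the 38 genes highest in S6. The medians are 50% in S8 and 5.30% in S7 on the left, and 44.0% in S6 and 9.18% in S5 on the right. The sets were formed by these values, so the highest library of each is given by construction.

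Some genes of the second set are given with their values, and were picked after these were seen. Et_8A_056525 had 28.1 CPM in LCS S5, 244 CPM in S6, 104 CPM in S7 and 102 CPM in S8, which is close to Et_9A_062466 in S6, S7 and S8. Et_2A_016900 had 17.7, 157, 53.2 and 63.1 CPM, and Et_4B_038582 had 10.2, 95.1, 40.6 and 36.3 CPM. In ConS, the libraries were at 4.18 to 6.29 CPM (Et_8A_056525), 3.59 to 5.46 CPM (Et_2A_016900) and 0.342 to 2.19 CPM (Et_4B_038582). Other genes of the set had another lowest library, such as Et_8A_057037 (S8) and Et_7B_055290 (S7). The 6 genes of neither set were Et_5B_044324 and Et_3A_025350, highest in S7, and Et_8B_059282, Et_1B_014419, Et_2A_018510 and Et_2A_015267, highest in S5. Et_8B_059282 had 36.8 CPM in S5 and 5.03 to 8.84 CPM in the other 3.

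The genes with the smallest spread in LCS were Et_9A_061979, Et_8A_057037 and Et_2B_021169. Et_9A_061979 had 5.48, 5.96, 5.29 and 5.02 CPM in LCS S5 to S8 and at most 0.128 CPM in ConS. Et_8A_057037 had 56.0, 72.0, 56.7 and 55.8 CPM in LCS, and 2.22, 3.69, 0.797 and 2.31 CPM in ConS. Et_2B_021169 had 20.9, 24.8, 22.8 and 16.3 CPM in LCS, and 0.133 to 1.35 CPM in ConS. For these 3 genes no LCS library stood far below the others, and the groups were wide apart in every library.

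At the other end, a single library carried most of the level. Et_3B_027550 had 21.1 CPM in LCS S5, 5.56 CPM in S6, 0.683 CPM in S7 and 112 CPM in S8, and its ConS libraries were at 0.0641 to 0.205 CPM. Et_4B_037611 had 6.17, 0.695, 0.256 and 31.4 CPM in the same order. Et_7B_055227 had 4.26, 1.29, 0.341 and 22.5 CPM, and its highest ConS library, S14, was at 0.273 CPM. Its lowest LCS library was only 1.25 times the highest ConS library, the smallest margin of the 150. Both values rest on 4 reads, in LCS S7 and in ConS S14, so this margin comes from the total counts of the libraries alone. Over all 150 genes the lowest LCS library was a median of 12.9 times the highest ConS library. It was at least 5 times in 106 genes and below 2 times in 6, with S7 the lowest in 5 of these and S5 in 1.

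How far the choice rests on single libraries was examined by applying it again. Without LCS S8, 125 of the 150 genes were chosen again, among them 81 of the 106 highest in S8 and 38 of the 38 highest in S6. Without LCS S6, 140 were chosen again, with 28 of the 38. Without both LCS S6 and S8, which was added after seeing the data, 121 were chosen again, with 82 of the 106 and 34 of the 38. The median difference from the ConS mean, on the log2(CPM + 0.5) scale, was 3.97 in LCS S5, 4.24 in S6, 2.89 in S7 and 5.03 in S8. The choice required every LCS library to be above ConS, so the sign of these differences is given by it.

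In control shoots, 19 genes had a mean of at least 1 CPM. The highest were Et_7B_055290, with 1.89, 4.92, 2.72 and 13.3 CPM in ConS S13 to S16, and Et_8A_056525, with 5.32, 4.51, 4.18 and 6.29 CPM (both named after their values were seen). S14 and S16 were both above S13 and S15 in 12 of the 19 genes. The summed level of the 19 genes was 30.1, 49.9, 27.6 and 53.9 CPM in S13 to S16. With the 19 included, that order held for 27 of the 106 genes highest in LCS S8 and for 15 of the 38 highest in LCS S6. Its share over all genes is not given, so it is not read as a trait of the 19. Et_7B_055290 had 53.7, 129, 36.6 and 118 CPM in LCS, so its groups did not overlap in spite of the high ConS S16. Of the 19 genes, 11 were highest in LCS S6 and 8 in LCS S8. For the other 131 genes the ConS sums were 21.9, 38.0, 23.6 and 26.6 CPM, with S14 the highest.

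Low levels in roots did not go with higher levels in control shoots for all of these genes. The mean level was above that of ConR in ConS for 76 of the 150 genes only. Every ConS library was above every ConR library in 25 genes, and every one was below in 12. The shares over all genes are not given for these counts, so they only describe the genes chosen. In the edgeR fit, 36 of the 150 genes were called lower in ConR than in ConS, against 23.7% of all genes tested. Another 6 were called higher in ConR, against 28.7% of all genes tested. The choice capped the root level and favoured a low ConS level, so nothing is read from these counts. The 6 genes were Et_3B_029356, Et_4A_035128, Et_3A_025350, Et_9B_065776, Et_4B_037347 and Et_1B_013107. Et_3B_029356 had 0.481, 1.42, 0.914 and 0.949 CPM in ConR S9 to S12 and 0 to 0.192 CPM in ConS, against 2.64 to 13.8 CPM in LCS. All 19 genes with at least 1 CPM in ConS were among the 36. The name "shoot-only" refers to the root limit and the LCS level that chose the genes. The choice did not compare the control tissues with each other.

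Reads were not absent from roots either. The mean per gene had a median of 0.206 CPM in LCR (0 to 0.969) and of 0.160 CPM in ConR (0 to 0.942). No read was found in LCR for 7 genes and in ConR for 4, and 0 of the 150 genes lacked reads in all 8 root libraries. All root libraries were below 1 CPM for 124 genes. The highest value in a root library was 2.18 CPM, for Et_4B_037347 in ConR S11, where the other ConR libraries were at 0.173 to 0.481 CPM.

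Whether low Ca changed these genes in roots as well is a comparison that the choice limited, since it kept only genes with a mean below 1 CPM in both root groups, though it did not use the direction between them. With edgeR's quasi-likelihood test and Benjamini-Hochberg adjustment over all genes tested, 0 of the 150 genes were called in LCR vs ConR, against 3.23% of all genes tested. Genes that reached a mean of 1 CPM in either root group could not be chosen, so the count is not read against that share. At an unadjusted p below 0.05 there were 6 genes (4.00%, against 20.7% of all genes tested), and these 6 were higher in LCR. Of all genes tested, 1.90% were called higher in LCR. DESeq2 called 3 of the 150, against 10.4% of all genes to which it gave an adjusted p. By limma-voom 1 of the 150 was called, against 5.24% of all genes tested. The fitted log2 fold change was above 0 for 95 of the 150 genes, with a median of 0.26, and the median over all genes tested was 0.03. The share of all genes tested with a value above 0 is not given, so the 95 are not read as a direction. These values rest on a median of 7 and 9 reads per gene over the 4 libraries of LCR and ConR, and what size of difference could be detected at this depth was not tested.

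The smallest adjusted p in roots was that of Et_9A_061979, with 2, 6, 3 and 1 reads in LCR S1 to S4 and 0, 1, 2 and 0 in ConR S9 to S12. The groups overlapped, and the log2 fold change was 2.42 ± 0.74 (SE; edgeR, adjusted p = 0.0768). Its adjusted p was 0.0497 with DESeq2, 0.0372 with limma-voom and 0.0326 with edgeR without ConR S11, so this call depends on the tool and on that library. Et_8B_059977 had 7, 1, 5 and 5 reads in LCR and 2, 4, 1 and 1 in ConR (edgeR log2 fold change 1.81 ± 0.57 SE, adjusted p = 0.0854; DESeq2, adjusted p = 0.0464). Et_5A_041109 had 6, 10, 4 and 12 reads in LCR and 2, 0, 5 and 3 in ConR (edgeR log2 fold change 2.27 ± 0.91 SE, adjusted p = 0.167; DESeq2, adjusted p = 0.0426). In CPM the root groups of Et_8B_059977 overlapped, and those of Et_5A_041109 were next to each other (lowest LCR library 0.393 CPM, highest ConR library 0.351 CPM). In LCS, Et_5A_041109 had 4.17 to 28.1 CPM, far above its root levels. The summed root level of the 150 genes was highest in LCR S1 (57.8 CPM), which had the lowest total count of all libraries.

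**Figure D5:**
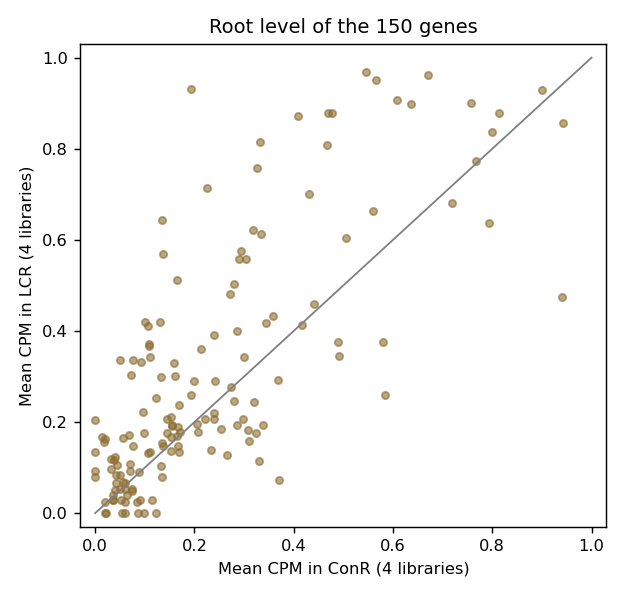
Mean CPM in LCR against mean CPM in ConR for the 150 genes, with 1 point per gene and the line of equal levels. Both means are below 1 CPM for every gene because the choice required it, 99 genes lie above the line, and edgeR called none of the 150. The share of all genes above such a line is not given.

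By their identifiers, the genes came from both subgenomes and from all 10 chromosome pairs. The A subgenome held 54.0% of them and the B subgenome 46.0%, against 49.7% and 48.5% of the genes tested. Chromosomes 1A and 1B together held 35 genes (23.3%, against 15.4% of the genes tested), with 17 on 1A and 18 on 1B. Chromosomes 6A and 6B held 8 (5.33% against 3%) and 7 (4.67% against 2.63%). Few came from 5A and 5B (4 genes, 2.67% against 7.78%) and from 10A and 10B (2 genes, 1.3% against 5.95%). Of the genes highest in LCS S8, 54 were on A and 52 on B, and of those highest in LCS S6, 24 were on A and 14 on B. These shares were not tested.

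Genes with consecutive identifiers formed 3 pairs, and in each both genes peaked in the same LCS library. Et_2A_018720 had 3.65, 22.1, 14.3 and 13.5 CPM in LCS S5 to S8, and Et_2A_018721 had 8.96, 56.2, 32.9 and 27.7 CPM. Et_6B_049735 had 1.39, 11, 3.07 and 4.72 CPM, and Et_6B_049736 had 14.4, 46.7, 25.3 and 23.3 CPM. Et_7A_052926 had 8.17, 7.35, 1.45 and 14.4 CPM, which is the order of its neighbour Et_7A_052927 at a lower level. The first 2 pairs were highest in S6 and the last in S8. Among all 150 genes S8 was highest for 70.7% and S6 for 25.3%, so a shared peak is common among them. Whether pairs share it more often was not tested. Around all 150 genes, 261 other genes with a number 1 apart were tested. Of these, 64 (24.5%) were called higher in LCS than in ConS and 23 (8.81%) lower, against 16.7% and 9.04% of all genes tested. Whether the order of identifiers follows the position on the chromosome was not examined, and reads shared by near-identical copies would not have been counted as uniquely mapped.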

How the data were processed

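The authors checked the reads with FastQC, trimmed them with sickle and mapped them with HISAT2 against a tef draft assembly. They took gene counts from unique alignments by HTSeq (reverse-stranded), and ran DESeq2 for their own tests. The deposited table holds these raw counts for 68255 genes in 16 libraries, without normalization. Reads that map to several places are lost, so genes with a near-identical copy in the other subgenome may be undercounted.

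CPM used column sums. Tests used edgeR 4.0.16 in R 4.3.3 (TMM scaling, quasi-likelihood F-test, 1 term per group over all 16 libraries) on 56746 genes detected in 4 or more of the libraries. Calls are at a Benjamini-Hochberg adjusted p below 0.05. The steps were tested on simulated data. Alternatives were other scalings and filters, DESeq2 1.42.0, limma-voom (limma 3.58.1), the 8 libraries of a comparison, thinned counts and each library left out. Python 3.11.15 was used for descriptions and figures.

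The genes, lists and tests were chosen with earlier results of these data known. Genes named are the 10 with the highest ratio, the 5 most abundant, the 3 with the smallest and the 3 with the largest SD over mean in LCS, the 2 on each side of the limit of 150, genes called in roots by edgeR (none), genes without reads outside LCS (none) and genes with consecutive identifiers. Other genes named were chosen after their values were seen. Replicates are independent according to the study, and 2 libraries correlated at r = 0.992 at most (log2(CPM + 0.5), across genes).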

Additional observations from a re-analysis of the deposited data

Results flagged for a closer look

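In 58 groups of 4 libraries of the named genes, 3 had a library far from the rest by the gap to the nearest library over the range, which chance gives in about 1 of 20 groups. Et_8A_057037 had 72.03 CPM in LCS S6, and 55.83 to 56.74 CPM in the other LCS libraries. Et_7B_055227 had 0.2732 CPM in ConS S14 and no read in the other ConS libraries. Et_4B_037611 had 0.1366 CPM in ConS S14 and 0.06414 to 0.06738 CPM in the other ConS libraries. The ConS values rest on a few reads each. The 58 groups leave out root groups of the named genes, so the count of 3 is not read against 1 of 20. Et_3A_025863, for example, had 1.91 CPM in LCR S1 and 0.295 to 0.338 CPM in the other LCR libraries, and was not among the groups examined.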

How the results depend on the processing

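The median log2 fold change of the 150 genes in LCS vs ConS moved by less than the spread between LCS libraries under the 25 alternatives run. The number called higher there is fixed by the choice of genes and says nothing about stability. The median ranged from 5.98 (without LCS S8) to 6.71 (without LCS S7) with a library left out. Applying the choice again kept 125 (without LCS S8) to 149 of the 150 genes with a library left out, 141 on TMM-scaled totals, 135 and 141 with offsets of 0.1 and 1, and 136 on thinned counts. The number of all genes called higher in LCS than in ConS, 9488, fell to 4313 without LCS S6 and S8 (added after seeing the data) and was 6877 to 10373 with a single library left out. In roots, the number of all genes called in LCR vs ConR, 1832, was 4636 with DESeq2, 2976 with limma-voom, 4197 with the 8 root libraries alone and 1039 on thinned counts, and 427 (without LCR S4) to 3565 (without ConR S11) with a library left out. The number of the 150 genes called there, 0, was 3 with DESeq2, 1 with limma-voom, and 0 to 1 with a library left out. The cause of these shifts was not tested. Root and ConS values rest on a median below 10 reads per gene and group. No paired analysis was possible because the labels number the libraries from S1 to S16 and do not say which roots and shoots came from the same plants.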
